A study of Rattus norvegicus with 30 samples.

Results

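Mitochondrial ribosomal proteins were measured here as transcripts in rat hepatocytes treated with WY-14643. The members are all probe sets of the Affymetrix rat array whose only gene symbol in the platform annotation starts with Mrpl or Mrps followed by a number. There were 97 such probe sets among 31042 that are not array controls, and 91 of them passed the filter on low signals described below. They stand for 73 genes, 46 named Mrpl and 27 named Mrps. Each gene was followed through its brightest probe set, and all 73 were among the 11545 genes tested.

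WY-14643 (pirinixic acid) is a synthetic agonist of PPARα, the nuclear receptor that switches on fatty acid oxidation in the liver. The cells were hepatocytes from male Sprague Dawley rats, bought frozen and cultured on collagen under Matrigel, and the labels give no age. Treatment began on day 3 of culture, and the 30 arrays fall into 6 groups of 5 wells: 8 µM WY-14643, 200 µM WY-14643 and vehicle (labelled 1% DMSO), each taken at 24 h and at 48 h. The labels describe the wells of a group as separate cultures and do not say whether they held cells of different animals, so errors and p-values here measure the spread between wells. How much DMSO the treated wells received is not clear from the labels.

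The mitochondrial ribosome makes the few proteins that mitochondrial DNA encodes, all of them membrane subunits of the respiratory chain and ATP synthase. Its RNAs come from mitochondrial DNA, but every one of its proteins is encoded in the nucleus, made on cytosolic ribosomes and imported. Some of these proteins descend from bacterial ribosomal proteins, and others were added during the evolution of mitochondria and have no bacterial counterpart. Hepatocytes are rich in mitochondria and depend on them for fatty acid oxidation, ureagenesis and gluconeogenesis.

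The deposited values are MAS5 signals, a linear intensity per probe set, and all fold changes are differences of log2(signal + 16) from limma, called at an adjusted p under 0.05. In every comparison with vehicle all 6 PPARα target genes listed as a control (Acot1, Ehhadh, Cyp4a1, Pdk4, Cpt1a, Acadm) rose. Of the hepatocyte markers, 7 of 8 had a probe set and all 7 passed the filter. Their summed signal was 458760 to 503930 in 8 µM wells and 460940 to 514500 in 200 µM wells, against 491250 to 591460 in vehicle wells at 24 h, and 399900 to 464660 and 374370 to 434620, against 381660 to 553300, at 48 h. Markers of Kupffer cells, the liver macrophages, passed for 5 of 6 listed genes. Their sum was 16297 to 18774 and 17083 to 18479 in 8 µM and 200 µM wells, against 19583 to 21807 in vehicle wells at 24 h, and 11347 to 13690 and 12156 to 13323, against 12830 to 16635, at 48 h. Stellate cell markers (5 of 6 passing) summed to 2805 to 3755 and 2693 to 3183 in 8 µM and 200 µM wells, against 3522 to 4043 in vehicle wells at 24 h, and to 3356 to 3889 and 2888 to 3455, against 3882 to 6757, at 48 h. By gene, 2, 1, 3 and 3 of 7 hepatocyte markers fell against vehicle (8 µM and 200 µM at 24 h, then 48 h). Of 5 Kupffer cell markers 1 fell in each, and 1 rose with 8 µM at 48 h. Falls numbered 1, 1, 2 and 3 of 5 stellate and 0, 1, 1 and 1 of 4 endothelial markers. Of 2 bile duct markers 1 fell each time. Of all genes 13.8%, 13.1%, 18.9% and 17.1% fell. The part of these cells in the results was not tested, and in bulk RNA fewer cells of a type and less RNA per cell cannot be told apart. The array of vehicle 48 h replicate 4 stood apart: its median signal was 764.4, against 383.5 to 438.8 on the other 29 arrays, and its median correlation with its own group was 0.896, against 0.973 to 0.980. Many of the results at 48 h, though not all, are therefore also given without it.

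As a family the mitochondrial ribosomal protein transcripts were modestly higher in treated than in vehicle wells. The mean level over the 73 genes was 12.81 ± 0.025 in 8 µM wells and 12.82 ± 0.030 in 200 µM wells, against 12.68 ± 0.030 in vehicle wells at 24 h (log2 signal, SD, n = 5 each). At 48 h it was 12.79 ± 0.022 in 8 µM wells and 12.85 ± 0.023 in 200 µM wells, against 12.62 ± 0.15 in vehicle wells, or 12.69 ± 0.032 in the 4 vehicle wells left without replicate 4. At either time every well of both doses lay above every vehicle well. The ratio of 3′ to 5′ actin probe signal, a measure of RNA integrity and labelling, was 3.10 ± 0.21 in 8 µM wells and 3.31 ± 0.17 in 200 µM wells, against 2.86 ± 0.28 in vehicle wells at 24 h, and 3.26 ± 0.42 and 3.10 ± 0.20, against 2.61 ± 0.31, at 48 h; its part in the family's shift was not tested.

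**Figure D1:**
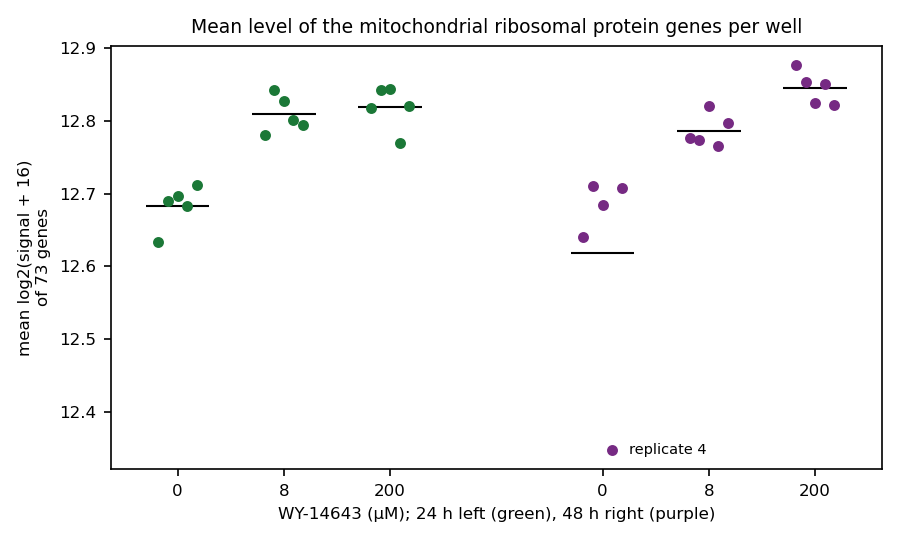
Mean log2(signal + 16) over the 73 mitochondrial ribosomal protein genes in each well (points) with the group mean (line), by WY-14643 concentration, where 0 is vehicle, at 24 h and 48 h. All treated wells lie above all vehicle wells of the same time, and the vehicle well at 12.35 is replicate 4 of the 48 h group.

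In the 8 µM wells at 24 h 20 of the 73 genes rose and 1 fell, where 11.1% of all genes tested rose and 13.8% fell. In the 200 µM wells at 24 h 23 rose and 1 fell, where 11.6% of all genes rose and 13.1% fell. At 48 h 29 rose and 2 fell with 8 µM, where 16.7% of all genes rose and 18.9% fell. With 200 µM at 48 h 35 rose and 2 fell, where 16.8% of all genes rose and 17.1% fell. The share of members that rose was thus 27.4%, 31.5%, 39.7% and 47.9% in these 4 comparisons. The median standard error was 0.072 for members and 0.12 over all genes, so smaller changes could pass for members than for most genes. The median log2 fold change of the members was 0.10, 0.12, 0.14 and 0.21, beside medians over all genes of −0.029, −0.017, −0.063 and −0.049. Most single changes were small: 52, 49, 42 and 36 members did not pass the test.

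Leaving out vehicle 48 h replicate 4 gave 25 rising and 1 falling member with 8 µM and 31 and 1 with 200 µM at 24 h, where 13.7% and 14.6% of all genes then rose and 17.1% and 16.3% fell. By 48 h it gave 24 and 6 with 8 µM (median 0.073) and 31 and 3 with 200 µM (median 0.13), where 16.8% and 17.2% of all genes rose and 20.2% and 18.8% fell. Centring each array on its own median left only 4 rising members in either 24 h comparison, and 25 and 26 when that array was also left out. Quantile normalization kept the 8 µM count at 48 h at 29 rising but raised the falling count to 8, and to 12 beside 25 rising without that array. Shares of all genes under median centring and quantile normalization are not given here. The member counts under them therefore cannot be set against all genes.

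The groups of 5 wells did not overlap, with the treated wells higher, for 18 members with 8 µM and 20 with 200 µM at 24 h, where this held for 9.98% and 9.87% of all genes. In the 48 h wells it held for 20 and 23 members, where it held for 11.2% and 11.4% of all genes.

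Across the 4 comparisons 14 members rose in all, where 7.26% of all genes did: Mrpl13, Mrpl16, Mrpl21, Mrpl30, Mrpl35, Mrpl42, Mrpl43, Mrpl44, Mrpl47, Mrpl49, Mrps6, Mrps18a, Mrps22 and Mrps33. Without vehicle 48 h replicate 4 the number was 13, where 8.22% of all genes rose in all: Mrpl42, Mrpl43 and Mrps6 each lost a 48 h call (Mrpl43 with 200 µM, 0.18 with that array and 0.085 without it, adjusted p = 0.134), and Mrpl4 and Mrpl18 joined. A further 5 rose in 3 comparisons (Mrpl2, Mrpl4, Mrpl12, Mrpl18, Mrps23), 13 in 2 comparisons and 10 in 1. Only Mrps25, Mrps7 and Mrpl23 fell in any, and 28 members were called in none of the 4. The comparisons at 1 time share their vehicle wells, so these counts are not independent of each other.

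**Figure D2:**
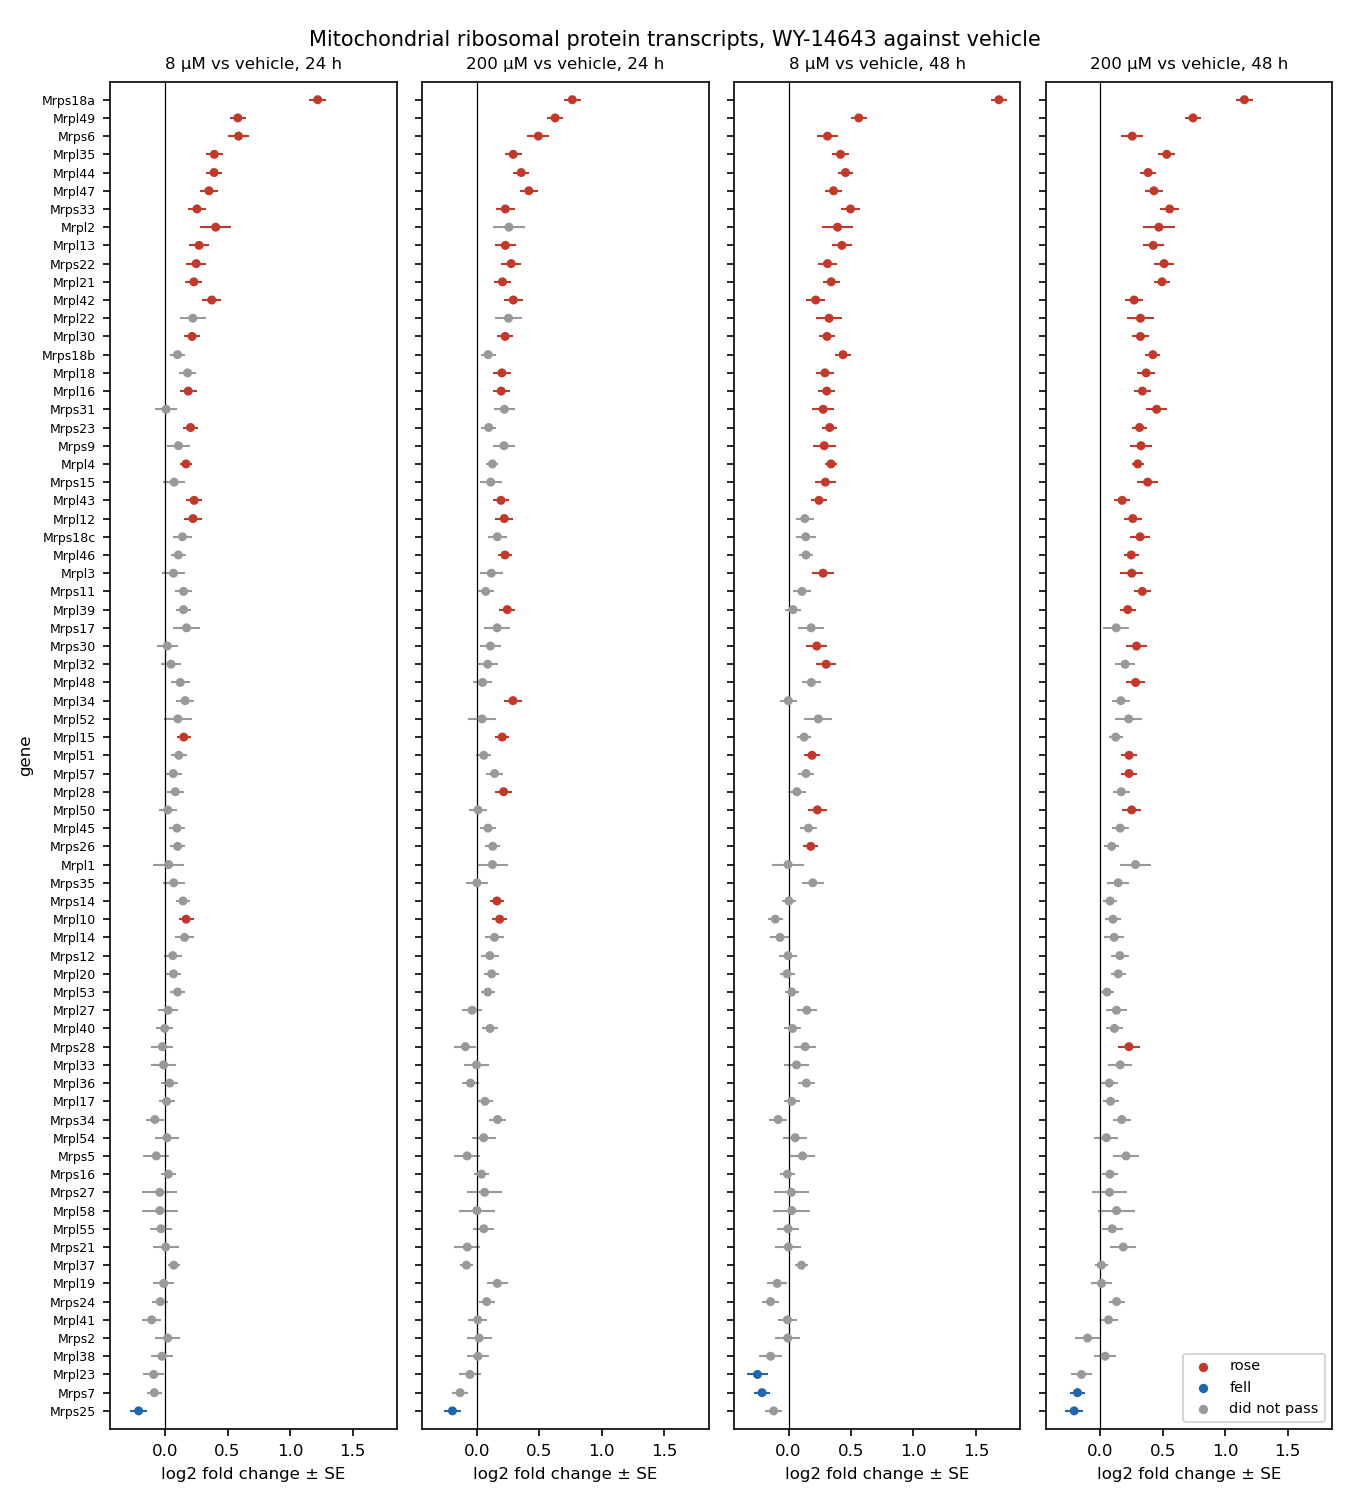
Log2 fold change of each of the 73 genes (dot) with its standard error (line) in WY-14643 against vehicle wells, n = 5 each, in the 4 comparisons, ordered by the mean over them. Red dots rose, blue dots fell and grey dots did not pass an adjusted p of 0.05; Mrps18a stands at the right in every panel, from 0.76 to 1.68.

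The largest change belonged to Mrps18a. It is among several mammalian proteins related to bacterial S18, and structures of the mammalian mitoribosome place it in the large subunit in spite of its name. At 24 h its signal was 17731, 18602, 19556, 17760 and 17684 in 8 µM wells and 13677, 14001, 12993, 12713 and 13136 in 200 µM wells, against 7716, 9115, 7019, 7867 and 7539 in vehicle wells. At 48 h it was 30111, 28269, 28450, 27419 and 26192 in 8 µM wells and 21748, 19512, 18136, 21311 and 16851 in 200 µM wells, against 8159, 8771, 9262, 8074 and 9431 in vehicle wells. No treated well overlapped a vehicle well, and at either time every 8 µM well lay above every 200 µM well. Relative to vehicle Mrps18a rose 2.33-fold with 8 µM (log2 fold change 1.22 ± 0.067 SE, adjusted p = 2.77e-16) and 1.70-fold with 200 µM (0.76 ± 0.067, adjusted p = 4.87e-11) at 24 h. By 48 h it rose 3.21-fold with 8 µM (1.68 ± 0.067, adjusted p = 3.54e-20) and 2.22-fold with 200 µM (1.15 ± 0.067, adjusted p = 1.08e-15).

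Mrps18a was also lower at the higher dose. In 200 µM against 8 µM wells its log2 fold change was −0.46 at 24 h (adjusted p = 3.96e-05) and −0.53 at 48 h (adjusted p = 1.55e-06). No other member fell between the doses. Its response was larger at 48 h than at 24 h by 0.46 with 8 µM (adjusted p = 0.00331) and by 0.39 with 200 µM (adjusted p = 0.0186). Median centring left none of these 4 differences past the threshold, with adjusted p from 0.0572 to 0.448, and with vehicle 48 h replicate 4 also left out it ended only the 200 µM difference between the times (0.34, adjusted p = 0.0832). That difference was also lost on the arrays compared alone and without 200 µM 48 h replicate 1. Its rises against vehicle passed in all 43 alternative settings and left-out arrays. Without Mrps18a, 19, 22, 28 and 34 of the other 72 members rose in the 4 comparisons with vehicle.

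The related Mrps18b and Mrps18c, which sit in the small subunit, differed from it in their readings. At 24 h Mrps18b read 11169, 12140, 11708, 11938 and 12989 in 8 µM wells and 11138, 12317, 12342, 11975 and 11780 in 200 µM wells, against 10724, 11073, 11495, 10684 and 11960 in vehicle wells. These groups overlapped, and the log2 fold changes of 0.10 and 0.09 did not pass (adjusted p = 0.271 and 0.326). In the 48 h wells it read 13766, 14001, 13088, 12642 and 13343 in 8 µM wells and 13258, 13791, 12728, 13904 and 12511 in 200 µM wells, against 10051, 10766, 10283, 8083 and 10428 in vehicle wells. All treated wells then lay above all vehicle wells, and Mrps18b rose by 0.44 ± 0.061 with 8 µM (adjusted p = 4.97e-07) and 0.42 ± 0.061 with 200 µM (adjusted p = 1.04e-06). The 8 µM rise passed in all 43 alternative settings and left-out arrays, at 0.35 or more. The growth of its response between the times passed for 8 µM (0.34 ± 0.086, adjusted p = 0.0230) and 200 µM (0.33 ± 0.086, adjusted p = 0.0294), and median centring ended both calls, with vehicle 48 h replicate 4 (adjusted p up to 0.556) or without it (0.165 and 0.212). Leaving out single arrays ended the 8 µM call in 2 cases and the 200 µM call in 6.

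Mrps18c read 5258, 4959, 4794, 4728 and 5217 in 200 µM wells at 48 h, against 3771, 3581, 3774, 4840 and 4124 in vehicle wells. The 4840 is replicate 4, and the other vehicle wells lay below all 200 µM wells. Mrps18c rose in this comparison by 0.32 ± 0.079 (adjusted p = 0.00164) and had log2 fold changes of 0.14 to 0.16 in the other 3, which did not pass. Without replicate 4 its 8 µM change at 48 h was 0.21 and passed (adjusted p = 0.0255). A second kept probe set of Mrps18c read 0.25 with 200 µM at 48 h (adjusted p = 0.0528) and −0.053 with 8 µM at 48 h (adjusted p = 0.728).

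The sequences just upstream of these genes are shown because the relatives moved by different amounts. Each run is the 250 bases before the annotated start, 5′ to 3′ along the gene, from RefSeq with the rat build GRCr8. Capitals mark matches to the motifs CCGGAAG (ETS factors), AAGATGGC (YY1) and GCGCATGC (NRF1), searched on both strands. The positions are chr9:22367381-22367630 for Mrps18a (minus strand), chr20:2842756-2843005 for Mrps18b (plus strand), chr14:9122907-9123156 for Mrps18c (minus strand) and chr1:212779328-212779577 for Mrpl49 (minus strand), the member with the next largest rise in 3 of the 4 comparisons.
Mrps18a: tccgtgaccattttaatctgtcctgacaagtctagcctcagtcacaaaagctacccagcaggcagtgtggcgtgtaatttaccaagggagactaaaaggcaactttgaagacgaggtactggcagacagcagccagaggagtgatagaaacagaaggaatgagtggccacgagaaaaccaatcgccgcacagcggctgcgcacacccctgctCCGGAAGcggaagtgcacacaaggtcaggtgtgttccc
Mrps18b: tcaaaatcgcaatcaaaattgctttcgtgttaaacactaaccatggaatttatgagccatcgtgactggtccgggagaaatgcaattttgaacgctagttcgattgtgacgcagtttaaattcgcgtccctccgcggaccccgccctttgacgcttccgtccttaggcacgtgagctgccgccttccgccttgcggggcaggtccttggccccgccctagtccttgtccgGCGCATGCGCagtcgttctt
Mrps18c: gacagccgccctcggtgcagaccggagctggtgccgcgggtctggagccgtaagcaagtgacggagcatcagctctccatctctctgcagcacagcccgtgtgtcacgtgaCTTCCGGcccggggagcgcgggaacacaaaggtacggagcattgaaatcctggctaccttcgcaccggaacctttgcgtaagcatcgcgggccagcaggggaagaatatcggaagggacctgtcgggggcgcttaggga
Mrpl49: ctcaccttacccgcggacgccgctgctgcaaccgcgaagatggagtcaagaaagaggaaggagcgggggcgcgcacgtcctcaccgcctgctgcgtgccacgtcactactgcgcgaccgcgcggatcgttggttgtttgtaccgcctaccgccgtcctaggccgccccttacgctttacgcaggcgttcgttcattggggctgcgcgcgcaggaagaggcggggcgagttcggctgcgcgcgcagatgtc
Mrps18a holds CCGGAAG beginning 38 bases before the start, and Mrps18c holds the same letters on the opposite strand (CTTCCGG) beginning 139 bases before it. In Mrps18b the capitals are overlapping matches to GCGCATGC on both strands, beginning 20 bases before the start. No capital appears in the Mrpl49 stretch. Further matches lie at or past the start, outside the stretches shown: AAGATGGC in Mrps18a, Mrps18b and Mrpl49, and CTTCCGG in Mrps18b, which begins 3 bases before the start and runs over it.

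Over the whole family, 59 of 73 genes have a promoter in the RefSeq table, a window of 300 bases that runs to 50 bases after the start. The motif CCGGAAG was present in 20 of the 59 (33.9%), beside 9.22% of all 27457 promoters and 17.2% of those of tested genes. AAGATGGC was present in 14 (23.7%), beside 3.44% and 5.38%, and GCGCATGC in 5 (8.47%), beside 2.66% and 4.77%. The direct repeat that PPARα binds with its partner RXR, AGGTCA given again after a spacer base, was in none of the 59 and in 0.0583% of all promoters, and a looser form with the fourth base of either copy free was in none and in 0.412%. Letters this rare would be missing from most sets of 59 promoters, so their absence does not set the family apart. These counts describe letters in short windows and no binding was measured.

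Counted by subunit, 16 of 48 large subunit genes (Mrpl genes with Mrps18a and Mrps30) rose with 8 µM and 19 with 200 µM at 24 h, and 20 and 24 rose at 48 h. Large subunit falls numbered 0, 0, 1 and 0 in the same order. Of the 25 small subunit genes, 4 and 4 rose at 24 h and 9 and 11 at 48 h, with 1, 1, 1 and 2 falls. The median log2 fold changes were 0.10, 0.13, 0.14 and 0.22 for the large and 0.07, 0.09, 0.13 and 0.18 for the small subunit. Without vehicle 48 h replicate 4 the 48 h counts were 15 rises and 3 falls with 8 µM and 22 and 1 with 200 µM for the large subunit (medians 0.09 and 0.14), and 9 and 3 with 8 µM and 9 and 2 with 200 µM for the small subunit (medians 0.035 and 0.10). Of all genes 16.8% and 17.2% then rose at 48 h and 20.2% and 18.8% fell. The 42 members listed as having a homolog in bacterial ribosomes gave 12, 14, 15 and 18 rises and 0, 0, 2 and 1 falls. The 31 others, listed as specific to mitochondria, gave 8, 9, 14 and 17 rises and 1, 1, 0 and 1 falls; of the S18 relatives only Mrps18c is in the first list, and Mrps18a and Mrps18b are in the second. The shares of members that rose were 28.6%, 33.3%, 35.7% and 42.9% in the first list and 25.8%, 29%, 45.2% and 54.8% in the second, where 11.1%, 11.6%, 16.7% and 16.8% of all genes rose. Falls took 13.8%, 13.1%, 18.9% and 17.1% of all genes in the same comparisons. Without vehicle 48 h replicate 4 the 48 h counts were 13 rises and 4 falls and then 15 and 2 (8 µM and 200 µM) in the first list, and 11 and 2 and then 16 and 1 in the second. No difference between these classes or between the subunits was tested.

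Among large subunit proteins Mrpl49, specific to mitochondria, came next after Mrps18a in all 4 comparisons. At 24 h it read 7143, 7315, 7087, 6761 and 6110 in 8 µM wells and 7685, 7043, 7398, 6738 and 6621 in 200 µM wells, against 4244, 4332, 5105, 4455 and 4842 in vehicle wells. At 48 h it read 6192, 5786, 6108, 6172 and 6890 in 8 µM wells and 6721, 6685, 7691, 6921 and 7277 in 200 µM wells, against 4275, 4377, 4268, 3880 and 4252 in vehicle wells. Treated and vehicle wells were separate at both times. Mrpl49 rose by 0.58 ± 0.062 (adjusted p = 3.88e-09) with 8 µM and 0.63 ± 0.062 (9.29e-10) with 200 µM at 24 h, and by 0.56 ± 0.062 (5.80e-09) and 0.74 ± 0.062 (1.24e-11) at 48 h. Its other kept probe set gave 0.61, 0.59, 0.48 and 0.74, all past the threshold.

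Mrpl44, which carries a fold related to RNase III, read 3261, 3461, 3702, 3765 and 3580 in 8 µM wells and 3368, 3478, 3331, 3523 and 3606 in 200 µM wells, against 3017, 3051, 2588, 2557 and 2360 in vehicle wells at 24 h. By 48 h it read 3619, 3754, 3714, 3784 and 3955 in 8 µM wells and 3943, 3476, 3294, 3610 and 3596 in 200 µM wells, against 2669, 2749, 2690, 2886 and 2708 in vehicle wells. No group of treated wells overlapped its vehicle group, and replicate 4 was not low here. Mrpl44 rose by 0.39 and 0.36 at 24 h and by 0.46 and 0.38 at 48 h (8 µM and 200 µM, SE 0.064, largest adjusted p = 4.93e-05).

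Mrpl35, a homolog of bacterial L35, read 8947, 11257, 10091, 10650 and 10578 in 8 µM wells and 8858, 9637, 10527, 9383 and 9520 in 200 µM wells, against 7887, 7340, 8279, 7966 and 7642 in vehicle wells at 24 h. In the 48 h wells it read 8491, 8178, 9102, 8037 and 9075 in 8 µM wells and 10148, 9339, 9240, 9216 and 8559 in 200 µM wells, against 6125, 6839, 7137, 5359 and 6784 in vehicle wells. The groups were separate throughout, and replicate 4 was the lowest vehicle well at 5359. Its rises were 0.39, 0.29, 0.42 and 0.53 over the 4 comparisons, and the last 2 were 0.35 and 0.47 without that well. Mrpl47, the homolog of bacterial L29, rose by 0.35, 0.42, 0.36 and 0.43 with no overlap in any comparison. Mrpl21, the homolog of L21, rose by 0.23, 0.21, 0.34 and 0.49, and Mrpl13, the homolog of L13, by 0.27, 0.23, 0.43 and 0.42. Mrpl47, Mrpl21 and Mrpl13 kept all 4 calls without vehicle 48 h replicate 4. The smallest 8 µM rise of Mrpl13 at 48 h over the alternative settings and left-out arrays was 0.31. Mrpl42, specific to mitochondria, rose by 0.37, 0.29, 0.22 and 0.27, and its 48 h changes without vehicle 48 h replicate 4 were 0.11 with 8 µM (adjusted p = 0.0806) and 0.16 with 200 µM (adjusted p = 0.00818).

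Mrpl2, the homolog of L2, which lies near the catalytic centre, was more scattered than these. It rose with 8 µM at 24 h (0.40 ± 0.13, adjusted p = 0.0148) and at 48 h with 8 µM (0.39 ± 0.13) and 200 µM (0.47 ± 0.13), and read 0.26 in 200 µM wells at 24 h (adjusted p = 0.146). Its 8 µM call at 24 h was lost without vehicle 24 h replicate 3 or replicate 4 (adjusted p up to 0.0959). In bacteria the homologs of Mrpl10 and Mrpl12 form the stalk that recruits translation factors. Mrpl10 rose at 24 h only (0.17 and 0.18), and reads −0.11 with 8 µM and 0.10 with 200 µM at 48 h did not pass. Mrpl12 rose in 3 comparisons (0.22, 0.22 and 0.26) and read 0.13 with 8 µM at 48 h (adjusted p = 0.174). Without vehicle 48 h replicate 4 its 48 h values were 0.033 with 8 µM and 0.16 with 200 µM (adjusted p = 0.690 and 0.0176). The 24 h calls of Mrpl10 were lost in 9 and 7 of the 43 settings and those of Mrpl12 in 5 and 6, among them averaging over probe sets and several left-out arrays.

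In the small subunit Mrps6, the homolog of bacterial S6, had the largest rise at 24 h. It read 8490, 8808, 8219, 8242 and 7887 in 8 µM wells and 8349, 8091, 7743, 7178 and 7631 in 200 µM wells, against 5138, 5720, 5585, 5365 and 5888 in vehicle wells. At 48 h it read 10001, 9664, 10144, 10160 and 8426 in 8 µM wells and 9647, 9488, 8937, 9968 and 8482 in 200 µM wells, against 8722, 8837, 9005, 5513 and 7427 in vehicle wells. The groups were separate at 24 h and overlapped at 48 h, where the lowest vehicle well, 5513, is replicate 4. Mrps6 rose by 0.59 ± 0.087 with 8 µM (adjusted p = 2.10e-06) and 0.49 ± 0.087 with 200 µM (adjusted p = 3.97e-05) at 24 h, and by 0.31 (adjusted p = 0.00487) and 0.26 (adjusted p = 0.0216) at 48 h. Without replicate 4 the 48 h values were 0.19 (adjusted p = 0.0165) and 0.13 (adjusted p = 0.0993).

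Mrps33, specific to mitochondria, read 15886, 16071, 16672, 16240 and 16746 in 8 µM wells and 18090, 17262, 16989, 17494 and 15346 in 200 µM wells at 48 h, against 10706, 12990, 13657, 8869 and 12294 in vehicle wells. All treated wells were above all vehicle wells. Mrps33 rose by 0.50 and 0.56 at 48 h (0.40 and 0.46 without replicate 4) and by 0.25 and 0.23 at 24 h. Mrps22, a mitochondria-specific protein whose human gene is mutated in a mitochondrial disease, rose by 0.25, 0.27, 0.31 and 0.51. All 4 calls were kept without vehicle 48 h replicate 4 and lost when the probe sets of Mrps22 were averaged. Median centring also ended both 24 h calls. The 8 µM call at 24 h was lost as well without vehicle 24 h replicate 1 or 5, or without 8 µM 24 h replicate 1. The other probe set of Mrps22 was dim, with a median signal of 211 against 2965 for the used one. Mrps15, the homolog of S15, rose at 48 h only, by 0.29 and 0.38, with readings of 0.07 and 0.11 at 24 h. Its lowest vehicle well at 48 h was replicate 4, at 3932, and without it the rises were 0.17 and 0.26.

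Mrps25, a mitochondria-specific small subunit protein, went the other way. At 24 h it read 7105, 6728, 7003, 6968 and 6287 in 8 µM wells and 7367, 7278, 6567, 6298 and 7011 in 200 µM wells, against 7682, 7819, 7867, 8159 and 7949 in vehicle wells. Every treated well lay below every vehicle well. By 48 h it read 7284, 6973, 6753, 6356 and 6864 in 8 µM wells and 6287, 6899, 5901, 7072 and 6041 in 200 µM wells, against 7730, 8198, 8115, 5865 and 7491 in vehicle wells, so that only replicate 4 (5865) lay among or below the treated wells. Mrps25 fell by 0.21 and 0.20 on the log2 scale at 24 h (adjusted p = 0.0230 and 0.0381) and by 0.21 with 200 µM at 48 h (adjusted p = 0.0197), and read −0.12 with 8 µM at 48 h (adjusted p = 0.196). Without replicate 4 the 48 h values were −0.20 (adjusted p = 0.00404) and −0.29 (adjusted p = 7.65e-05).

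Mrps7, the homolog of S7, fell by 0.21 with 8 µM and by 0.18 with 200 µM at 48 h. Mrpl23, whose bacterial homolog sits at the exit of the peptide tunnel, fell by 0.25 with 8 µM at 48 h (adjusted p = 0.0205), or by 0.38 without replicate 4, when it also fell with 200 µM (−0.28, adjusted p = 8.08e-05). Several of these falls lost their call when 1 array was left out. The 200 µM call of Mrps25 at 24 h was lost in 8 of 43 alternative settings, 7 of which left out 1 array of the groups compared. Its estimate stayed between −0.22 and −0.16 throughout. The other calls of Mrps25 were lost in 3 and 6. The call of Mrpl23 was lost in 6, and those of Mrps7 in 1 with 8 µM and 5 with 200 µM.

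**Figure D3:**
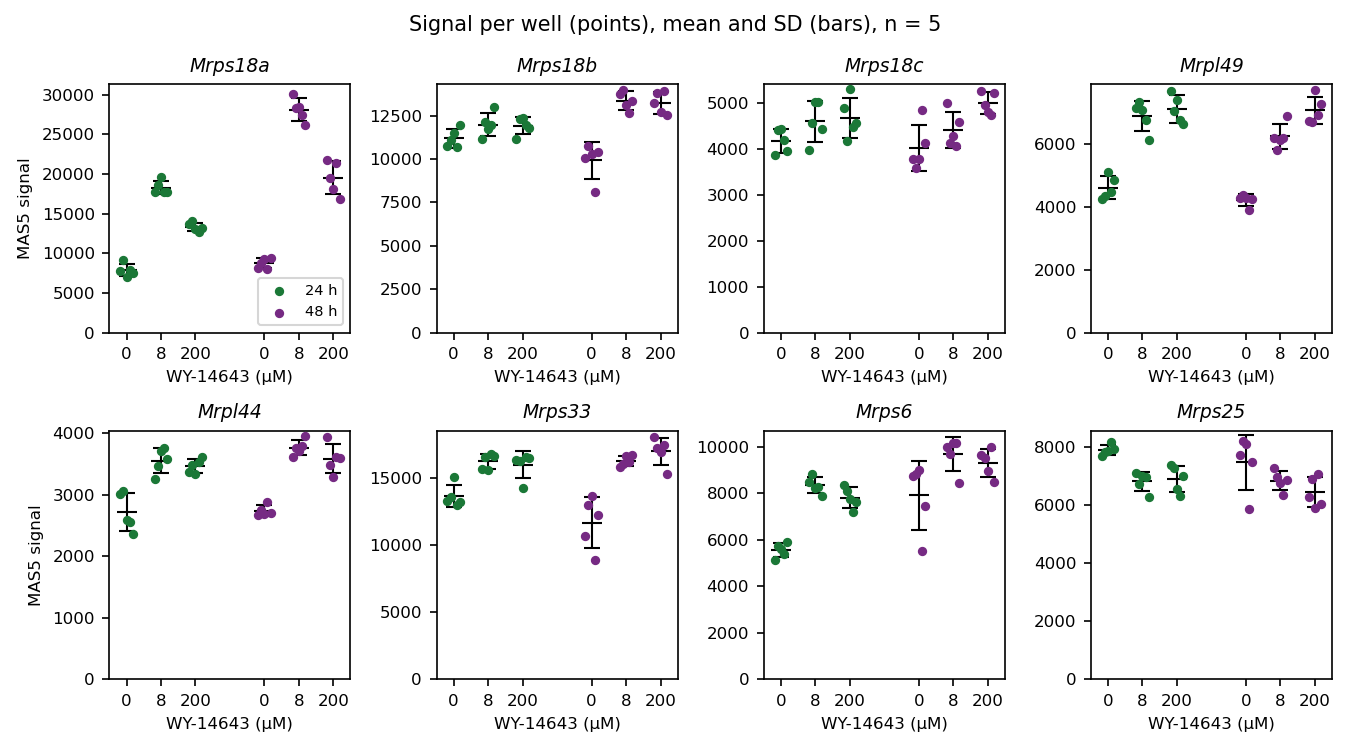
MAS5 signal of 8 members in every well (points) with mean and SD (bars, n = 5), by WY-14643 concentration, where 0 is vehicle, at 24 h (green) and 48 h (purple). Treated wells of Mrps18a, Mrpl49 and Mrpl44 lie wholly above vehicle wells, Mrps18b separates from vehicle at 48 h only, and Mrps25 lies lower in treated wells at 24 h.

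Between the doses few members differed. In 200 µM against 8 µM wells none rose at 24 h and 1, Mrps18a, fell, where 1.39% of all genes rose and 1.63% fell in limma; 6 members had an unadjusted p under 0.05. At 48 h 4 members rose and 1 fell, where 2.26% of all genes rose and 2.53% fell. The risers were Mrps24 (0.27 ± 0.064, adjusted p = 0.00786), Mrps34 (0.26 ± 0.072, adjusted p = 0.0297), Mrps11 (0.23 ± 0.069, adjusted p = 0.0475) and Mrpl10 (0.21 ± 0.061, adjusted p = 0.0405). Of 43 alternative settings and left-out arrays, 10 ended the call of Mrps34, 22 that of Mrps11 and 2 that of Mrps24. The call of Mrpl10 was lost with probe sets tested on their own (adjusted p = 0.0571), and its other kept probe set read 0.0056 (adjusted p = 0.995). Mrps24, the homolog of S3, read 9943, 8743, 9500, 9200 and 9859 in 200 µM wells, against 7739, 8078, 7963, 7631 and 7590 in 8 µM wells. The groups were separate, while the vehicle wells read 9209, 8929, 9356, 6715 and 9209 and lay with the 200 µM wells except for replicate 4. Without that well Mrps24 was lower in 8 µM than in vehicle wells (−0.23, adjusted p = 6.50e-05) and near vehicle in 200 µM wells (0.04, adjusted p = 0.526). Leaving it out gave 1 rise and 2 falls among members at 24 h, where 2.72% of all genes rose and 3.14% fell, and 8 rises and 1 fall at 48 h, where 4.34% rose and 4.64% fell.

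The change of the response between 24 h and 48 h passed for 2 members at each dose, Mrps18a and Mrps18b, all larger at 48 h. For the 8 µM effect 1.67% of all genes passed upward and 1.23% downward, and for the 200 µM effect 1.3% and 1.11%. Without vehicle 48 h replicate 4 Mrpl4 also passed upward at either dose, and Mrps6 passed downward at either dose. Mrpl23 and Mrpl42 then passed downward for 8 µM. Of all genes 2.34% then passed upward and 2.7% downward for 8 µM, and 1.91% and 2.32% for 200 µM.

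In vehicle wells alone, 48 h against 24 h, 1 member rose and 6 fell, where 4.46% of all genes rose and 5.4% fell. Mrps6 rose by 0.49 ± 0.087 (adjusted p = 0.000197), or 0.61 without replicate 4. Mrps21 (−0.35), Mrps15 (−0.28), Mrpl35 (−0.28), Mrps11, Mrps33 and Mrpl57 fell. Without replicate 4 the calls of Mrps21, Mrps15 and Mrps33 were lost, Mrpl4 was added and 1 rise and 4 falls were counted, where 6.04% of all genes rose and 4.64% fell. The change of the Mrps6 drug response between the times was −0.28 with 8 µM (adjusted p = 0.282) and −0.24 with 200 µM (adjusted p = 0.406) and did not pass; without replicate 4 it was −0.40 (adjusted p = 0.00337) and −0.36 (adjusted p = 0.0102).

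Other genes of the mitochondrial translation system were also measured, and no list was tested against the members. In a list of 7 tested mitoribosome genes under other symbols, Ptcd3, a small subunit protein, rose in all 4 comparisons (0.34, 0.59, 0.33 and 0.62). Mterf4, a partner of the ribosomal RNA methyltransferase Nsun4 in assembly rather than a structural protein, also rose in all 4 (0.50, 0.49, 0.60 and 0.56). Dap3, a GTP-binding small subunit protein, fell with 8 µM (−0.26 at 24 h, −0.22 at 48 h). Ptcd3 and Mterf4 are the list's rises in each comparison, 28.6% of it. Of all genes tested, 11.1%, 11.6%, 16.7% and 16.8% rose and 13.8%, 13.1%, 18.9% and 17.1% fell in the 4 comparisons. Of 23 tested assembly genes, 3, 7, 6 and 7 rose (13%, 30.4%, 26.1% and 30.4%), and 1, 0, 2 and 0 fell. They include Fastkd2, an RNA-binding protein needed for the large ribosomal RNA (0.44, 0.63, 0.39 and 0.61), and Lrpprc, which stabilises mitochondrial mRNAs (0.22, 0.30, 0.51 and 0.57). Eral1, a chaperone of the small ribosomal RNA, fell with 8 µM at 48 h (−0.59, adjusted p = 0.0357), a call lost without vehicle 48 h replicate 4 (−0.36, adjusted p = 0.149), and Ddx28, a helicase, rose there by 0.49, or 0.32 without that array.

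Of 15 tested mitochondrial aminoacyl-tRNA synthetase and amidotransferase genes, 1, 2, 4 and 5 rose (6.67%, 13.3%, 26.7% and 33.3%), where 11.1%, 11.6%, 16.7% and 16.8% of all genes did. Qrsl1, a subunit of the amidotransferase that makes glutaminyl-tRNA, rose in all 4 (0.36, 0.42, 0.34 and 0.49), and Vars2 (0.65 and 0.55) and Iars2 (0.41, 8 µM only) rose at 48 h. Fars2 rose with 200 µM at 48 h by 0.29, a call lost without vehicle 48 h replicate 4 (0.22, adjusted p = 0.0799). Of 11 tested translation factors, 1, 1, 2 and 1 rose (9.09%, 9.09%, 18.2% and 9.09%), near or below the shares of all genes: Mtres1, an RNA-binding protein also named for mitochondrial transcription, in all 4 (0.59, 0.54, 0.71 and 0.66) and the elongation factor Gfm1 with 8 µM at 48 h (0.38).

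Genes for transcribing and copying mitochondrial DNA gave 3, 3, 5 and 6 rises (25%, 25%, 41.7% and 50%) and 1, 1, 2 and 2 falls of 12 tested. The shares of all genes were 11.1%, 11.6%, 16.7% and 16.8% for rises and 13.8%, 13.1%, 18.9% and 17.1% for falls. Tfam, which packages and helps transcribe mitochondrial DNA, rose by 0.61, 0.53, 0.61 and 0.55. Tfb2m, a partner of the mitochondrial RNA polymerase, rose by 0.51, 0.43, 0.96 and 0.93. Polg2, the accessory subunit of the mitochondrial DNA polymerase, fell in all 4 comparisons (−1.46, −0.97, −1.65 and −1.02), while the catalytic subunit Polg rose by 0.52, 0.34, 0.49 and 0.33. Mterf2 fell at 48 h (−0.62 and −0.58). Of 10 tested regulators of mitochondrial biogenesis, 0, 1, 1 and 1 rose and 1, 1, 4 and 4 fell. Without vehicle 48 h replicate 4 the falls at 48 h were 2 and 3, where 20.2% and 18.8% of all genes fell. Beside the count of 0 in limma, 2 of the 10 had an unadjusted p under 0.05. Esrra, an orphan nuclear receptor, rose with 200 µM at 24 h (0.39) and at 48 h (0.82 and 0.94), Myc fell in all 4 (−0.70, −0.47, −0.80 and −0.82), and the coactivator Ppargc1a fell at 48 h (−0.80 and −0.56), its 200 µM call being lost without vehicle 48 h replicate 4 (adjusted p = 0.0608). The Nrf1 transcript fell at 48 h (−1.24 at either dose, adjusted p = 0.0420 and 0.0435), a call lost without vehicle 48 h replicate 4 (adjusted p = 0.0842 and 0.0853).

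Cytosolic ribosomal protein genes did not share the pattern of calls. Of 45 tested, limma called none in any of the 4 comparisons, with 0, 0, 2 and 4 at an unadjusted p under 0.05, and the median log2 fold changes were −0.042, −0.020, 0.027 and −0.030. Without vehicle 48 h replicate 4 the 48 h counts were 0 rises and 6 falls with 8 µM and 1 rise and 16 falls with 200 µM, with medians of −0.063 and −0.13. Of all genes tested, 16.8% and 17.2% then rose and 20.2% and 18.8% fell. The difference between this family and the mitochondrial one was not tested.

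**Figure D4:**
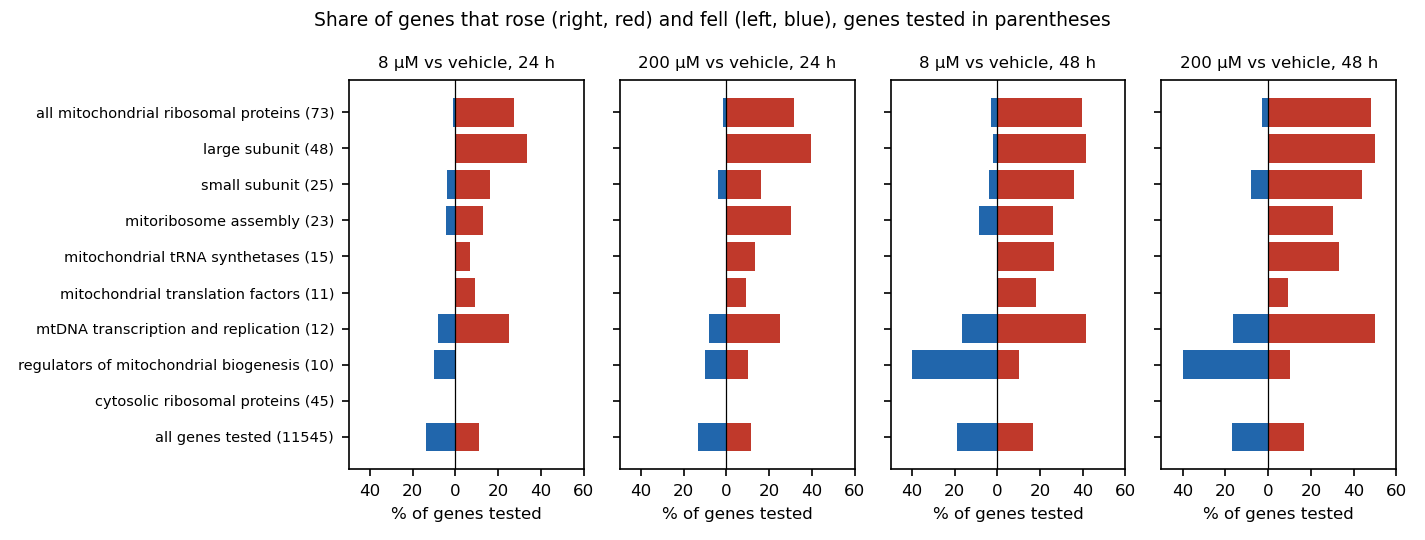
Percentage of tested genes that rose (red, right of 0) and fell (blue, left of 0) at an adjusted p under 0.05 in each comparison with vehicle, for the mitochondrial ribosomal proteins, their subunits, other gene lists and all genes tested. For the mitochondrial ribosomal proteins 27.4% to 47.9% rose, and no cytosolic ribosomal protein gene was called in any panel.

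A second probe set could be compared for some members. Of 73 genes 55 had 1 probe set, and 16 had several that passed the filter, which gave 72 comparisons between a used and another probe set over the 4 contrasts with vehicle. Both passed in the same direction in 12, neither in 40, the used one alone in 16 and the other alone in 4. In none did both pass in opposite directions. Both passed for Mrpl49, Mrpl51, Mrps9 and Mrps14, and the other probe set of Mrps9, the homolog of S9, gave larger rises (0.83 and 0.76 at 48 h) than the used one (0.29 and 0.33, or 0.17 and 0.21 without vehicle 48 h replicate 4, when the 8 µM call was lost with adjusted p = 0.0606). The calls without support from another probe set were those of Mrpl10, Mrpl12, Mrpl50, Mrpl57, Mrps15, Mrps18c and Mrps22, and 1 of the probe sets of Mrpl51. Used probe sets were judged in the limma fit over genes, the others in a limma fit over all 21282 kept probe sets. In the latter fit the used probe set of Mrpl10 missed the threshold with 8 µM at 24 h (adjusted p = 0.0507). For Mrps22 the other probe set read 0.14, 0.07, −0.31 and −0.35 and for Mrps15 it read −0.37 and −0.22 at 48 h, none past the threshold. RefSeq names a pseudogene after 21 members, among them Mrps18b, Mrps18c, Mrpl2, Mrpl47 and Mrps25, and whether the probes also bind pseudogene RNA was not tested.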

How the data were processed

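Purchased rat hepatocytes were measured on 30 Affymetrix arrays, 6 groups of 5 wells. The deposited intensity values were made by the authors with MAS5, per the submitters' processing notes; version, scaling target and chip definition are not given in the sources used here. They were positive and linear, with a 2% trimmed mean of 1500.45 to 1500.7 on every array, so no further scaling was applied. Gene symbols came from the platform annotation. Of 31099 probe sets, 57 controls were left out, and probe sets were kept where at least 5 arrays read above 281, the 40th percentile over all signals. Each gene is represented by its kept probe set of highest mean log2 signal. The fit was limma 3.58.1 (R 4.3.3; lmFit, contrasts.fit, eBayes with a variance trend) on log2(signal + 16), with 1 mean per group over all 30 arrays, two-sided tests and Benjamini-Hochberg adjustment over all 11545 genes in each of 9 comparisons; it was tested on simulated data. The number of arrays limits the precision: the median standard error was 0.072 for members in comparisons of groups and 0.12 over all genes.

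The members and lists were chosen with earlier results of these data known. Named members were, in each comparison with vehicle, up to 6 with the largest rise and 6 with the largest fall past the threshold, up to 3 of each in other comparisons, and those whose call another kept probe set did not share; in each pathway list, up to 4 with the largest change. Other members are named to account for the family or as relatives of Mrps18a. Alternatives were quantile normalization or median centring, a pseudocount of 1 or 64, no filter or the 60th percentile, averaged or separate probe sets, fits on the arrays compared only, a replicate block, array weights and leaving out each array. Quantile normalization and median centring without vehicle 48 h replicate 4 were added after the data were seen. Arrays were numbered in runs of 6 that each hold every group, and replicate numbers follow them. Marker lists covered hepatocytes, Kupffer, stellate, endothelial and bile duct cells and lymphocytes; endothelial, bile duct and lymphocyte markers passed the filter for 4 of 5, 2 of 4 and 1 of 4 genes.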

Additional observations from a re-analysis of the deposited data

Results flagged for a closer look

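Some wells lay far from the other wells of their group, by Dixon's test at the 95% level, in 21 of 168 groups of wells examined (27 named genes and the family mean in 6 groups each); chance gives about 1 in 20. Of these, 13 were vehicle 48 h replicate 4. It was the lowest well for the family mean (12.35, where the other 4 lay at 12.64 to 12.71) and for Mrpl12 (8755), Mrpl13 (3804), Mrpl23 (8180), Mrpl42 (6462), Mrpl49 (3880), Mrps15 (3932), Mrps18b (8083), Mrps21 (8484), Mrps24 (6715), Mrps25 (5865) and Mrps34 (5992), and the highest for Mrps22 (2888). The same array has the high median signal given with the study's arrays, and what set it apart was not tested.

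The other 8 lay on several arrays. Mrpl12 was high in 8 µM 24 h replicate 2 (14775), where Mrpl47 was low (3638). Mrpl2 was low in 200 µM 24 h replicate 4 (2193) and high in 8 µM 48 h replicate 5 (3909), where Mrps6 was low (8426). Mrpl57 was high in vehicle 24 h replicate 5 (6925). Mrps22 was low in 200 µM 48 h replicate 2 (3194) and Mrps33 in 200 µM 24 h replicate 3 (14256).

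The response to WY-14643 differed between 48 h and 24 h by limma's test of the difference for Mrps18a (0.46 with 8 µM and 0.39 with 200 µM, log2) and for Mrps18b (0.34 and 0.33). All were larger at 48 h, in comparisons that share no wells between the times.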

How the results depend on the processing

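Counts of called members stayed within 1.5 times of those reported in all 4 comparisons with vehicle under every alternative except median centring, which gave 4 and 4 at 24 h. Most counts in this section are of members only, without the share of all genes called under the same setting. Median centring moved the median of all genes at 48 h to 0.13 and 0.12 and the medians of the members to 0.13 with 8 µM at 24 h, and to 0.33 and 0.37 at 48 h. It left 0 called members between the doses at 24 h and 48 h, for either change of response and for vehicle over time, whose medians were 0.20, 0.24 and −0.20. Median centring without vehicle 48 h replicate 4 gave a median of 0.13 with 8 µM at 24 h, counts of 2 between the doses at 48 h, 1 for the change of the 200 µM response (median −0.027) and 1 for vehicle.

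The small counts moved more. The count between the doses at 24 h was 2 with a pseudocount of 64, the 60th percentile filter, only the arrays compared or the replicate block, 3 with quantile normalization or array weights, and 4 with quantile normalization without replicate 4. At 48 h it was 3 over separate probe sets, 1 on the arrays compared, 10 with array weights and 8 with quantile normalization without replicate 4. The change of response with 8 µM and 200 µM gave 1 and 0 on the arrays compared, and 7 and 4 with array weights and with quantile normalization without replicate 4 (200 µM median 0.0027). Vehicle over time gave 1 on the arrays compared. Quantile normalization split vehicle over time into 4 rises and 6 falls, the change of the 8 µM response into 2 and 1, and the doses at 24 h into 1 and 2. Averaging a gene's probe sets turned the 8 µM values at 48 h of Mrps15 to −0.040 and of Mrps22 to −0.00092. The probe sets averaged in were dim, with median signals of 325 and 211.

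Leaving out each array in turn gave 16 to 26 and 17 to 32 called members at 24 h (8 µM, 200 µM) and 29 to 37 and 33 to 42 at 48 h. The 26 and 32 came without vehicle 48 h replicate 4. Of all genes 13.7% and 14.6% then rose at 24 h, against 11.1% and 11.6% with all arrays. Falls then took 17.1% and 16.3% of all genes, against 13.8% and 13.1%. Leaving out each array gave 1 to 3 and 2 to 9 between the doses, 1 to 6 and 0 to 4 for the changes of response (200 µM median −0.0029 to 0.11), and 4 to 10 for vehicle over time. Between the doses, for the changes of response and for vehicle over time, 6, 9, 3, 7 and 2 of the 30 left-out arrays moved the count by over 1.5 times. The highest counts between the doses and for the changes of response came without vehicle 48 h replicate 4; the lowest came without 200 µM 48 h replicate 1 between the doses at 48 h (2) and for the change of the 200 µM response (0). Of 58 named results, 20 kept their call in all settings. The replicate block, which pairs wells of the same run, called 22 and 24 members at 24 h and 33 and 39 at 48 h. Wells of the same run did not deviate together (median correlation 0.013, against −0.0048 for different runs). What such wells have in common beyond their place in the numbering was not tested. The cause of each move was not tested.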

Other observations

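The non-member genes whose level followed the members' mean most closely over the 30 arrays, each gene standardised, were Timm13, an import chaperone of the mitochondrial intermembrane space (Pearson r = 0.941), Dcun1d2 (0.937), Sgf29 (0.937), Cox14, an assembly factor of cytochrome c oxidase (0.933), and Psma2, a proteasome subunit (0.932). Over the 29 arrays without vehicle 48 h replicate 4 they were Psma4 (0.917), Tm2d3 (0.906), Psmc6 (0.902), Gde1 (0.899) and Psma1 (0.894), of which Psma4, Psmc6 and Psma1 encode proteasome subunits. The points share the arrays, their scaling and the treatment groups, so these are descriptions, and none of the genes is on both lists.

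In RefSeq's annotation of GRCr8 Mrpl49 overlaps Syvn1, a ubiquitin ligase of the endoplasmic reticulum. Syvn1 fell with 8 µM at 24 h (−0.27, adjusted p = 0.0472) and at 48 h with 8 µM (−0.29) and 200 µM (−0.46), where Mrpl49 rose, and read −0.24 with 200 µM at 24 h (adjusted p = 0.0783, or 0.0373 without vehicle 48 h replicate 4). Ndufb5, a complex I subunit that overlaps Mrpl47, rose at 48 h (0.24 and 0.19, or 0.17 and 0.11 without vehicle 48 h replicate 4, when its 0.12 with 200 µM at 24 h also passed, adjusted p = 0.0254), and Klc4, next to Mrpl2, rose at 48 h (0.28 and 0.26). Rsph9, next to Mrps18a, and Slc5a3, which overlaps Mrps6, were called in none of the 4 comparisons with vehicle. Actl6a, Gga3 and Ppp1r10, examined with these neighbours, were also called in none of them.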
